A study of Mus musculus with 12 samples.

Results

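The comparison described here set 3 mice that carried both the miRNA deletion and the drug against 3 mice that carried neither, 6 of the 12 libraries of the series. The KO MTX mice (replicates 2, 3 and 4) lacked Mir181a-2 and Mir181b-2 in the whole body (Mir181a2b2-/-) and were injected intraperitoneally with methotrexate (MTX) at 1 mg/kg once a week. The flox vehicle mice (replicates 1, 3 and 4) had the floxed Mir181a2b2 allele in both copies (miR-181a2b2flox/flox), which stays intact without Cre, and were given vehicle. All mice were males on a high fat diet (HFD) of 60% fat for 12 weeks, and epididymal white adipose tissue (eWAT), labelled as white adipose tissue, was sequenced. The age of the mice is not given in the sources used here. Because genotype and drug both differ between these groups, the comparison measured their combined effect and their shares in it cannot be told apart from these 6 mice. The other 6 libraries, 3 KO vehicle and 3 flox MTX mice, entered the model and served as reference for levels in fat.

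MicroRNAs are short RNAs that pair through their seed, bases 2 to 8, with sites in the 3′ UTRs of messenger RNAs and lower the stability or translation of those messengers. The miR-181 family is known for damping NF-κB signalling in the endothelium and for roles in lymphocytes. MTX, a folate analogue, blocks enzymes of folate and purine metabolism, and at low weekly doses it is used against inflammation, an action attributed in part to adenosine. In obese eWAT, macrophages gather around dying adipocytes, take up their lipid and switch on lysosomal genes, while adipocytes lose part of their lipid-making and insulin-response program.

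The 2 deleted hairpins are on the plus strand of chromosome 2 (RefSeq, GRCm38.p6), Mir181a-2 at chr2:38852735-38852810 and Mir181b-2 at chr2:38853830-38853918, inside the gene Nr6a1, which is read from the other strand. Their main mature products are shown because they are the molecules removed by the knockout, with the seed in capitals.
miR-181a-5p: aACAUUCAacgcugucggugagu
miR-181b-5p: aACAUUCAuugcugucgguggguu
Both share the seed ACAUUCA. The same mature miRNAs are also made from a second pair of hairpins on chromosome 1, which the deletion leaves in place. The libraries were not made from small RNA, and neither hairpin had a count in any of the 6 libraries, which allows up to 0.118 to 0.139 CPM (3 counts on the TMM scale used below) in each, so the deletion could not be checked on the targeted genes themselves. Nr6a1, which codes for the nuclear receptor known as germ cell nuclear factor, was at 5.77, 10.3 and 6.42 CPM in the flox vehicle mice and at 2.83, 3.21 and 3.19 CPM in the KO MTX mice, with a log2 difference of -1.28 ± 0.27 (adjusted p = 0.00391, edgeR). Its flox vehicle values lay above all KO MTX values, and its highest value was in replicate 3. In the mice outside the comparison, Nr6a1 was at 3.16, 4.82 and 3.94 CPM in flox MTX, which keep the intact floxed allele. In KO vehicle it was at 3.98, 4.07 and 3.51 CPM, so the flox vehicle values lay above those of all other groups. The cause of this difference was not tested.

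The libraries held 21204019 to 23491634 counted reads. CPM are counts relative to the TMM-scaled library size, log2 differences are KO MTX minus flox vehicle ± SE, and a gene was called higher or lower when the edgeR quasi-likelihood test gave an adjusted p below 0.1 (Benjamini-Hochberg over all genes tested) together with a change of at least 1.5-fold. The study's methods describe age-matched males from shared litters and cages, but no source used here ties a litter or cage to a library, and p-values measure the spread between these mice. Adipocyte genes were abundant in all 6 libraries, among them Fabp4, a fatty acid carrier, at 17201, 6547 and 14908 CPM in flox vehicle and 11653, 5180.1 and 12029 CPM in KO MTX mice.

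Transcripts of the male reproductive tract were present in the flox vehicle libraries and nearly missing from the KO MTX libraries. Crisp1, a secreted protein of the epididymis (chr17:40293758-40319207, GRCm38 with GENCODE M21 genes, as for all gene positions below), stood at 3751, 9201 and 1164 CPM in the controls (replicates 1, 3 and 4, the order of all values below) and at 0.217, 8.49 and 0.131 CPM in the KO MTX mice (replicates 2, 3 and 4, likewise). Summed over the 100 genes of an epididymis list, the level was 10464, 32483 and 3472 CPM in the flox vehicle mice and 11.9, 40.6 and 11.8 CPM in the KO MTX mice. Replicate 3 was thus highest and replicate 4 lowest, with a 9.36-fold range among the 3 controls, and even the lowest control was 85.6 times the highest KO MTX library. More than 3 counts in every library of the group were found for 68 of the 100 genes in flox vehicle and for 7 in KO MTX mice, and 34 genes were at 0 in every KO MTX library. The filter on low counts left 60 genes, of which 53 were called lower and 0 higher, beside 22.9% of all genes tested called lower. Because most of them passed that filter through the flox vehicle libraries, this count is a description and carries no weight of its own. Spint3 and Defb40, of the epididymal protease inhibitors and defensins, had 3 counts or fewer in every KO MTX library and were at least 1068-fold and at least 252-fold lower, taking 3 counts in each KO MTX library. In the libraries outside the comparison the epididymis sum was 45.1, 36 and 26.6 CPM in KO vehicle and 1062, 26.9 and 47.5 CPM in flox MTX mice, so that flox MTX replicate 1 also held these transcripts.

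**Figure D1:**
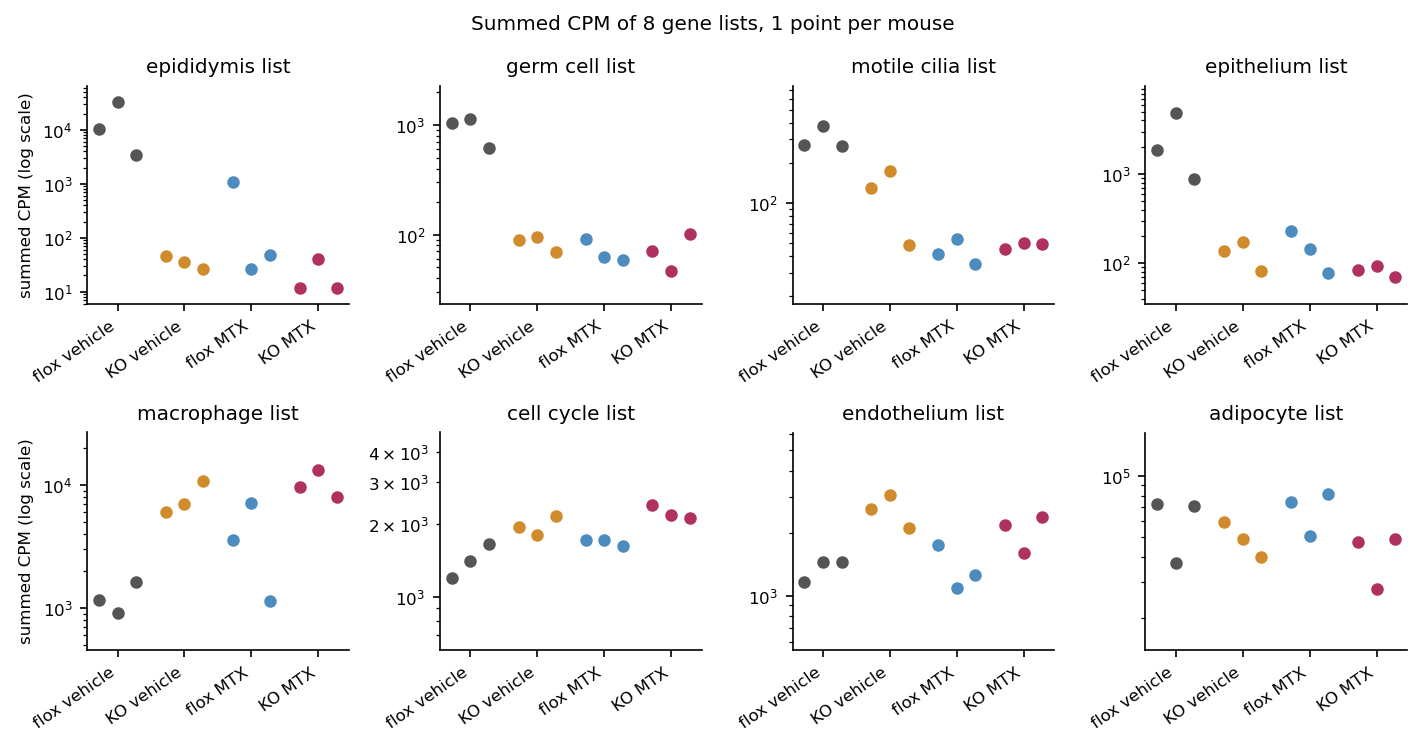
Summed CPM of 8 gene lists on log axes, 1 point per mouse, coloured by group (flox vehicle, KO vehicle, flox MTX, KO MTX, replicates in numerical order within a group). The 3 flox vehicle points of the epididymis and germ cell lists lie above all 3 KO MTX points, those of the macrophage and cell cycle lists lie below them, and the adipocyte sums overlap.

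Transcripts of sperm and their precursors differed in the same direction, with a narrower range among the controls. Germ cell genes together reached 1038, 1137 and 617 CPM in the controls against 70.5, 46.4 and 101 CPM in the KO MTX mice. Of the 63 tested, 60 were called lower, and 9 followed the order 3, 1, 4 among the controls. Prm2, a protamine that packs sperm DNA, was at 269, 117 and 52.1 CPM in flox vehicle and 0.087, 0.0433 and 4.15 CPM in KO MTX mice (log2 difference -6.67 ± 1.16, adjusted p = 0.00186, edgeR). Here replicate 1, not replicate 3, was the highest control, and KO MTX replicate 4 stood above the other KO MTX mice. Odf1, of the sperm tail, was at 60.5, 66.2 and 13.6 CPM and 0.0435, 0 and 1.31 CPM in the same mice. Of 37 genes of motile cilia, 35 were called lower, with summed levels of 274, 376 and 266 CPM and 45, 50.3 and 49.4 CPM. Foxj1, the master regulator of motile cilia, fell from 28.4, 16.6 and 19.1 CPM to 0.174, 0.0867 and 0.219 CPM (log2 difference -7.02 ± 1.19, adjusted p = 0.00176, edgeR). The cilia sum of the KO vehicle mice, 129.8, 173 and 48.8 CPM, lay between these groups in 2 of 3 mice, at 2.5 times or more the highest KO MTX value.

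Of 43 epithelial genes tested, 41 were called lower, and the sum was 1883, 4865 and 873 CPM in flox vehicle and 83.3, 92.7 and 70 CPM in KO MTX mice, again highest in replicate 3. Prom2, a membrane glycoprotein of epithelial cells, was at 571, 1422 and 202 CPM in the controls and 0.087, 1.69 and 0.0437 CPM in the KO MTX mice. Pax2, a transcription factor of the kidney and genital ducts, was at least 450.0-fold lower. A short list of accessory gland genes had 4 of 5 tested called lower, with Ceacam10 at 162, 265 and 80.6 CPM against 0, 0.173 and 0 CPM. More than 3 counts in every KO MTX library were found for 27 of 70 germ cell, 18 of 39 cilia and 20 of 45 epithelial genes, so that many members here too passed the filter through the flox vehicle libraries. For each of these 5 lists the sums of the 3 mice per group did not overlap. The lists were chosen with earlier results of these data known, so this is a description and not a test.

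Across all 18702 genes tested, 7222 (38.6%) were called, 2933 (15.7%) higher and 4289 (22.9%) lower in the KO MTX mice, and the 3 values per group did not overlap for 51.7%. These shares are the background for every list count below. To set reproductive tract transcripts apart from those of fat, the members of the 5 lists were taken out first. Any other gene was set apart when fewer than 3 of the 6 libraries outside the comparison reached 0.5 CPM, or when flox vehicle replicates 3, 1 and 4 stood in that falling order with replicate 3 at least 4 times replicate 4, the order of the epididymis sum. These rules removed 2680 genes, of which 1799 were called lower and 91 higher. The rules favour that direction, since they pick genes that are low outside the compared groups or high in flox vehicle replicate 3, and by using flox vehicle levels they also move the balance among the genes kept. The 6 libraries outside the comparison were not free of such transcripts. The epididymis sum was 1062 CPM in flox MTX replicate 1, and the cilia sums were 129.8 and 173 CPM in KO vehicle replicates 1 and 2. Reproductive tract genes outside the lists could therefore pass as expressed in fat. Among the 16022 genes kept, 2842 (17.7%) were called higher and 2490 (15.5%) lower, with a median log2 difference of 0.02. Changes of 8-fold or more were 211 higher and 206 lower among kept genes, whereas 1496 genes fell that far before genes were set apart.

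**Figure D2:**
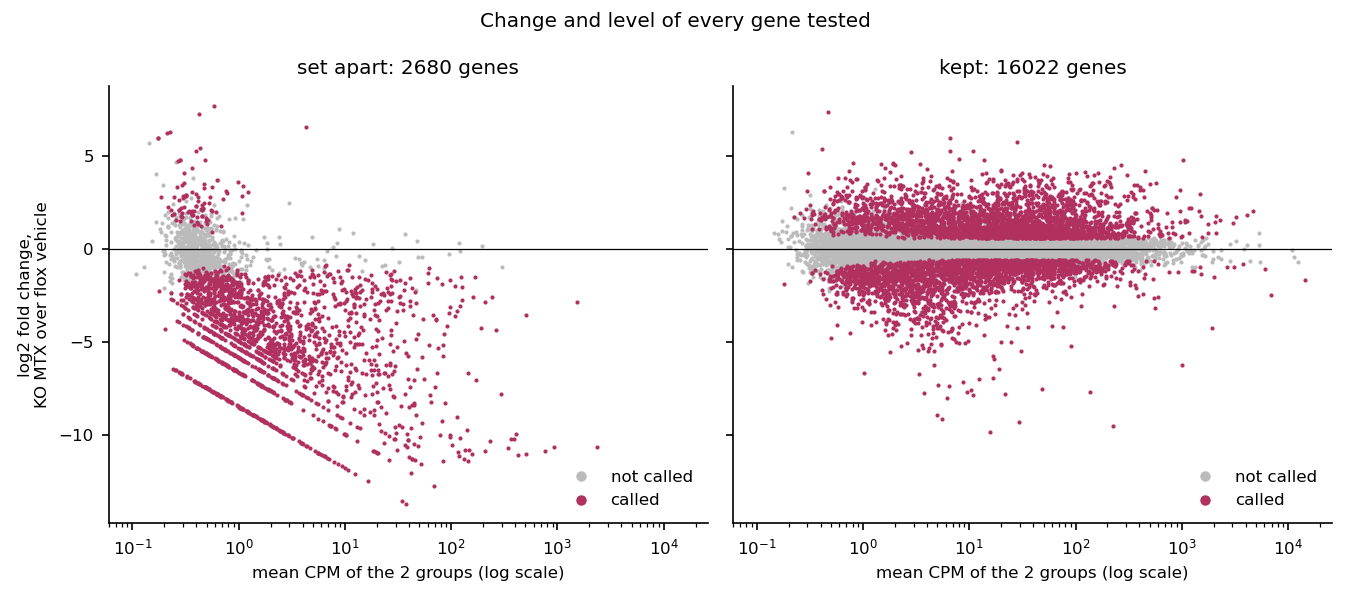
Log2 fold change of KO MTX over flox vehicle (vertical) against the mean CPM of both groups (horizontal, log axis) for the 2680 genes set apart and the 16022 kept, with called genes in red. Of the genes set apart 1799 were called lower and 91 higher, a direction the rules favour, and of the kept genes 2490 were called lower and 2842 higher, while the diagonal lines at the lower left are genes with few or no counts in KO MTX mice.

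The setting apart was incomplete for the falls. The order 3, 1, 4 held in 28.1% of all genes tested, in 51.0% of those called lower and in 7.88% of those called higher. Of the 2490 kept genes called lower, 1158 still followed this order, 633 of them with replicate 3 at 2 to 4 times replicate 4. When every gene in this order was set apart as well, a choice made after seeing the data, 2619 kept genes were called higher and 1332 lower. Asking in addition for 1 CPM in all 6 libraries outside the comparison left 2219 higher and 917 lower, of which 12 fell 8-fold or more. The order is that of the epididymis sum, and 51 of the 60 germ cell falls and 22 of the 35 cilia falls did not follow it. It therefore misses most transcripts of those kinds, and the falls left may still hold some from outside the lists. With the epididymis sum as a covariate no gene was called (edgeR, 1872 genes at an unadjusted p below 0.05). The epididymis sum itself separated the groups as given above, so epididymal content and group could hardly be told apart in that fit. With flox vehicle replicate 4, the control with the lowest epididymis sum, as the only control, 3872 genes were called, 1463 kept genes higher and 973 lower, a lone mouse assumed to vary like the other groups.

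Among the kept genes, the largest rises included genes known from activated macrophages, matrix remodelling and embryonic growth. Hmga2, a chromatin protein of embryonic and dividing cells (chr10:120361275-120476469), rose from 0.217, 0.236 and 0.139 CPM to 12.9, 18.2 and 7.47 CPM, with a log2 difference of 5.97 ± 0.89 (adjusted p = 0.00152, edgeR). Mmp3, the matrix protease stromelysin (chr9:7445822-7455975), rose from 0.911, 0.826 and 1.29 CPM to 55, 67.9 and 42.9 CPM (log2 difference 5.77 ± 0.72, adjusted p = 0.00149, edgeR). Every KO MTX mouse lay more than 5-fold above every control for both genes. Gdf3, a ligand of the TGF-β superfamily made by adipose macrophages, was at 0.13, 0.472 and 1.06 CPM and 25, 25.8 and 12.5 CPM, and Gpnmb, a glycoprotein of lipid-laden macrophages (chr6:49036546-49070929), at 102, 43.9 and 70.7 CPM and 1723, 2780.1 and 1402 CPM. The other genes chosen by size, each with non-overlapping groups, were Htr2b (5.25), a serotonin receptor, the immunoglobulin segment Ighv1-81 (5.22), the serpin Serpinb9b (4.83), the myosin Myh15 (4.78), Dppa3 (4.56), a maternal-effect gene, the metalloprotease Adam8 (4.51), Rgs1 (4.50), a regulator of G proteins in leukocytes, and the endosomal RNA sensor Tlr13 (4.44), values being log2 differences. The segment Ighv1-81 belongs to a family of near-identical copies among which reads may be split, and its call was lost without KO MTX replicate 3 (4.72) or without any of the flox vehicle replicates 1 (5.16), 3 (5.30) and 4 (5.21). DESeq2 gave no adjusted p for Ighv1-81 or Serpinb9b. Of the 12 genes chosen by size, 1 followed the order 3, 1, 4 among the controls.

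Macrophage genes rose almost without exception. Of 23 macrophage genes tested, 22 were called higher and 0 lower, with a median log2 difference of 3.14, against 15.7% of all genes tested called higher. In bulk tissue, a change in the number of cells of a type and a change in RNA per cell cannot be told apart. Adgre1, which codes for the F4/80 antigen, rose from 29, 17.3 and 33.7 CPM to 391, 497 and 305 CPM (log2 difference 3.90 ± 0.65, adjusted p = 0.00171, edgeR). Cd68, of macrophage lysosomes, rose from 40.7, 27.3 and 43.3 CPM to 541, 754 and 432 CPM (log2 difference 3.96 ± 0.75, adjusted p = 0.00256, edgeR). In both, every KO MTX mouse was more than 9-fold above every control, replicate 3 was the highest treated mouse, and control replicate 3 the lowest control. Fcgr1 (CD64) had a log2 difference of 3.77. Markers of recruited and of resident macrophages were both among the rises, with Itgax (CD11c) at 3.61 beside Mrc1 (CD206) at 2.59, Lyve1 at 1.98 and Folr2, a folate receptor of resident macrophages, at 3.28. Timd4, of long-lived resident macrophages, was the member that was not called, at 1.61, 0.236 and 0.97 CPM against 1.13, 2.82 and 1.31 CPM. The list sum was 1163, 905 and 1620.3 CPM in controls and 9586, 13337 and 8007 CPM in KO MTX mice. Without flox vehicle replicates 1 and 3, 17 of 23 were called higher, with a median of 2.56.

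Genes of lipid-associated macrophages, which take up the fat of dying adipocytes, rose with them. Of 23 tested, 20 were called higher and 0 lower, with a median log2 difference of 2.67, and 11 were called higher against flox vehicle replicate 4 alone. Trem2, the lipid receptor that drives this state, rose from 27.2, 14.4 and 23.8 CPM to 406, 581 and 334 CPM (log2 difference 4.34 ± 0.88, adjusted p = 0.00344, edgeR). Mmp12, the macrophage elastase, rose from 50.5, 33.8 and 52.2 CPM to 559.8, 1481 and 506 CPM, with KO MTX replicate 3 well above the other treated mice. Ctsk, a cathepsin, and Atp6v0d2, a subunit of the proton pump, had log2 differences of 3.50 and 4.08, and Plin2, which coats lipid droplets, of 2.21. Lysosomal genes rose in 22 of 30 cases with 0 lower and a median of 1.02. Psap, the precursor of the saposins, rose from 1870.0, 1501 and 2212 CPM to 7362, 8948 and 6474 CPM, and Lipa, the acid lipase that breaks down cholesteryl esters and triglycerides, from 106, 91.6 and 98 CPM to 607, 793 and 477 CPM (log2 difference 2.67 ± 0.46, adjusted p = 0.0018, edgeR).

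The machinery of phagocytosis and of antigen presentation was higher as well. For Fc receptors and phagocytosis, 27 of 28 genes were called higher and 0 lower (median 2.96), among them Fcgr4, an activating receptor for IgG, at 2.78, 0.472 and 1.52 CPM and 24.9, 33.4 and 24.1 CPM, and the oxidase subunit Cybb with a log2 difference of 3.17. Of MHC class II genes, 10 of 11 were called higher and 0 lower (median 2.09). Cd74, the invariant chain, rose from 347, 310.1 and 661 CPM to 2092, 2204 and 1729 CPM (log2 difference 2.19 ± 0.42, adjusted p = 0.0027, edgeR). Control replicate 4 was the highest control for Cd74 and for H2-Aa, a class II chain, and with it as the only control 1 of the 11 genes was called.

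**Figure D3:**
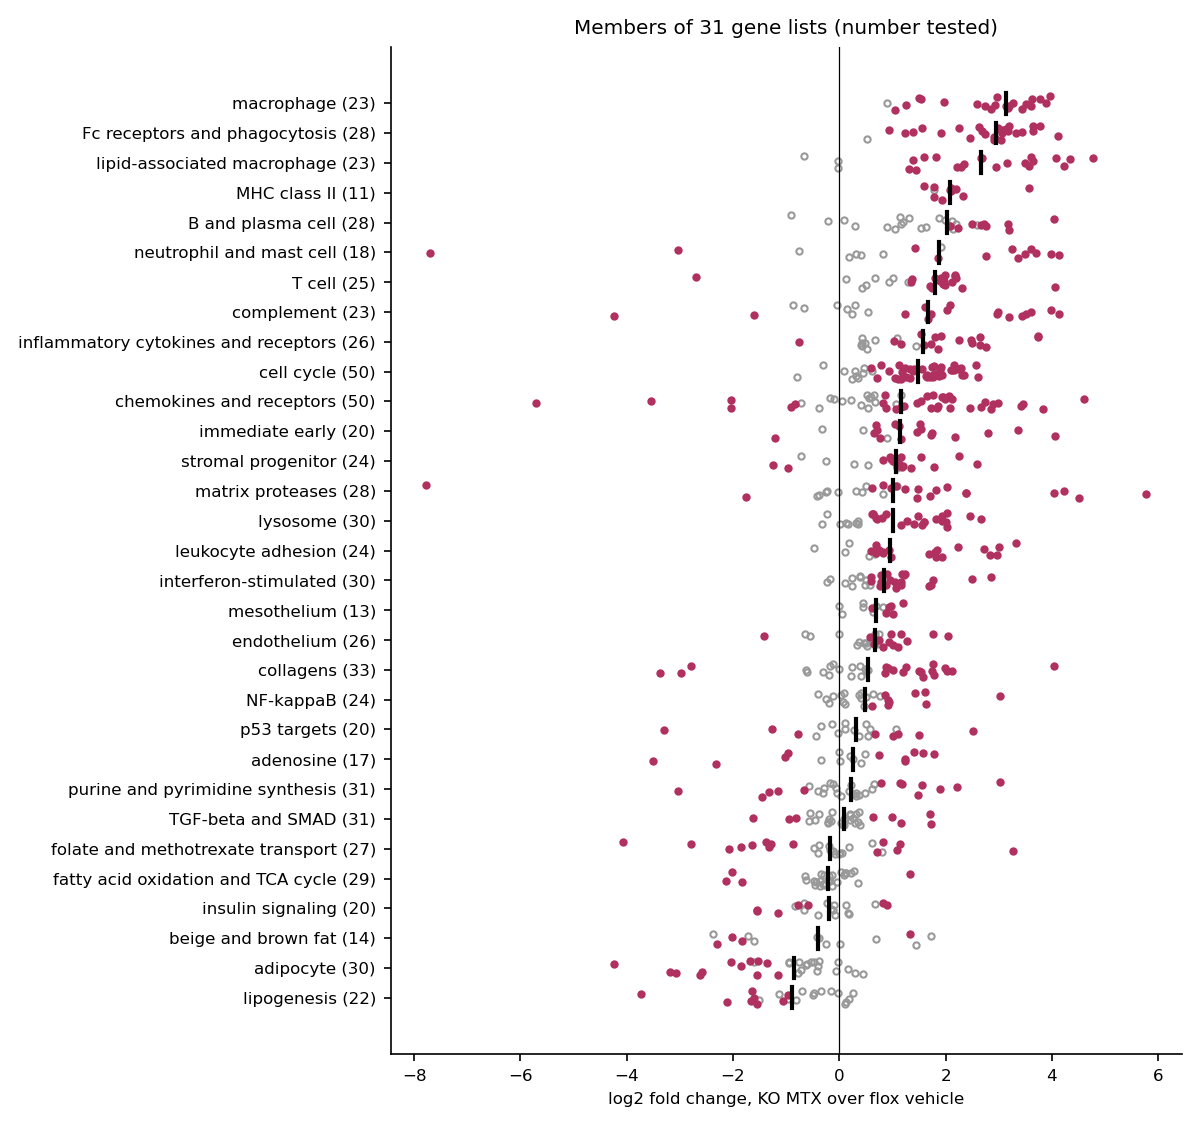
Log2 fold change of KO MTX over flox vehicle for each tested member of 31 gene lists, filled where called and open where not, with a bar at the list median and the number tested in brackets. Medians run from 3.14 for macrophage genes to -0.88 for lipogenesis, and single low outliers such as Mmp7 at -7.77 and Ltf at -7.71 are transcripts at high level in the flox vehicle libraries.

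Most complement genes were higher. Of 23 tested, 14 were called higher and 2 lower, with a median of 1.68, beside 15.7% and 22.9% of all genes tested. Their summed level overlapped, at 11353, 4138 and 5076 CPM in flox vehicle and 7802, 11028 and 8038 CPM in KO MTX mice. The receptors rose, with C5ar1, the receptor for C5a, at 13.4, 9.68 and 16.5 CPM and 230.5, 307 and 161 CPM (log2 difference 4.14 ± 0.60, adjusted p = 0.0015, edgeR) and C3ar1 at 18.5, 13 and 21 CPM and 271, 343 and 220.4 CPM. The 3 chains of C1q, which macrophages secrete, had log2 differences of 3.20, 3.51 and 3.43 for C1qa, C1qb and C1qc. The called falls were C6 (-1.61), of the terminal complex, whose call was lost without KO MTX replicate 3 (-1.28), and Cfd, the adipocyte protease adipsin (chr10:79890853-79892655), which went from 7981, 1447 and 1619.8 CPM to 244, 63.7 and 274 CPM (log2 difference -4.25 ± 0.88, adjusted p = 0.00372, edgeR). Cfd was highest in control replicate 1, and all 3 controls lay above all KO MTX mice.

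Chemokine and cytokine genes were mostly higher but at low level. Of 50 chemokines and chemokine receptors tested, 29 were called higher and 6 lower (median 1.16), beside 15.7% and 22.9% of all genes tested. Ccl3, a chemoattractant of monocytes, rose from 0.564, 0.511 and 0.369 CPM to 5.35, 10.6 and 4.85 CPM (log2 difference 3.83 ± 0.74, adjusted p = 0.00273, edgeR), and Ccr3, the receptor of eosinophils and mast cells, from 0.174, 0 and 0.277 CPM to 3.39, 5.72 and 1.88 CPM. The abundant Ccl6 and Ccl9 had log2 differences of 2.98 and 3.45, and Ccl2, the main monocyte attractant, of 1.46, a call lost without KO MTX replicate 2 (1.28), flox vehicle replicate 1 (1.02) or flox vehicle replicate 3 (1.45). Of the 6 falls, 4 followed the order 3, 1, 4, and Ccl28, an epithelial chemokine that was set apart as not expressed in fat, went from 7.07, 6.69 and 9.88 CPM to 0.174, 0.0433 and 0.219 CPM. Of 26 inflammatory cytokine and receptor genes, 16 were called higher and 1 lower (median 1.57). Il1rn, the antagonist of the interleukin-1 receptor, rose from 2.86, 2.08 and 8.26 CPM to 58.1, 71.5 and 46.8 CPM, Il10, which restrains macrophages, from 0.347, 0.118 and 0.0923 CPM to 2.39, 3.47 and 1.75 CPM, and Tnf from 0.564, 0.354 and 0.508 CPM to 2.48, 3.60 and 2.88 CPM. Members known to drive and to restrain inflammation were both among the rises. Interferon-stimulated genes were called higher in 20 of 30 cases and lower in 0 (median 0.84), led by Oasl1 at 2.85 and Oas1a at 2.49, sensors or effectors of the antiviral response.

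Adhesion molecules, the readout of endothelial activation in the study, were higher in KO MTX mice. Vcam1, which captures leukocytes on activated endothelium (chr3:116109949-116129688), rose from 14, 14.5 and 32.9 CPM to 72.4, 79.9 and 66 CPM (log2 difference 1.83 ± 0.41, adjusted p = 0.00568, edgeR). Icam1 rose from 9.07, 9.28 and 9.74 CPM to 28.2, 44.7 and 24.5 CPM (log2 difference 1.79 ± 0.32, adjusted p = 0.00196, edgeR). For Vcam1 control replicate 4 stood at more than 2 times the other controls and still at less than 0.5 times the lowest KO MTX mouse, and the Vcam1 call was lost with replicate 4 as the only control. Sele, which codes for E-selectin, was at 0.0434, 0.275 and 0.369 CPM and 0, 0.217 and 0.306 CPM, too low to be tested. Of 24 leukocyte adhesion genes 19 were called higher and 0 lower (median 0.95). The largest rises were in integrin chains and receptors of leukocytes, Itgb2 at 38.5, 27.3 and 52.7 CPM and 349, 531 and 302 CPM, Cd44 with a log2 difference of 3.01 and Itgam (CD11b) of 2.96, whereas the endothelial Pecam1 was at 0.97, Esam at 0.93 and Icam2 at 0.70.

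Of 26 endothelial genes, 12 were called higher and 1 lower, beside 15.7% and 22.9% of all genes tested. Their median was 0.68, and 0.60 against flox vehicle replicate 4 alone. Cd93, an endothelial and myeloid receptor, rose from 35.1, 75.3 and 64.1 CPM to 244, 283 and 198 CPM (log2 difference 2.05 ± 0.30, adjusted p = 0.0015, edgeR). Plvap, of the diaphragms of fenestrated vessels, rose from 22, 28.9 and 28.5 CPM to 91.9, 88.6 and 89 CPM, with nearly equal values in the treated mice. Cdh5 (VE-cadherin) and the angiopoietin receptor Tek, which define endothelial cells, were not called, at 0.66 and 0.38, with overlapping groups, though Cdh5 was called higher without KO MTX replicate 3 (0.92). Sox7 fell from 44.7, 15.2 and 18.9 CPM to 9.87, 5.89 and 13.7 CPM (log2 difference -1.42 ± 0.60, adjusted p = 0.0852, edgeR), a call lost without KO MTX replicate 2 (-1.41), KO MTX replicate 3 (-1.15) or flox vehicle replicate 1 (-0.79). Nos3, endothelial nitric oxide synthase, was not called (-0.64). The 13 endothelial calls became 7 without KO MTX replicate 2, 8 without KO MTX replicate 4 and 7 without flox vehicle replicate 1.

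Lymphocyte and mast cell genes were low in abundance and more variable. Of 25 T cell genes, 17 were called higher and 1 lower (median 1.79), beside 15.7% and 22.9% of all genes tested, with Cd3e at 1.65, 1.34 and 1.62 CPM and 4.0, 9.92 and 4.50 CPM. Il7r, the interleukin-7 receptor, had the largest rise, 6.42, 3.54 and 6.74 CPM to 85.3, 114 and 77.7 CPM (log2 difference 4.06 ± 0.58, adjusted p = 0.0015, edgeR), and Skap1, the member that was called lower, followed the order 3, 1, 4 at 13, 37.3 and 4.34 CPM and 1.91, 4.03 and 2.49 CPM. Of 28 B and plasma cell genes, 9 were called higher and 0 lower (median 2.04), beside 15.7% and 22.9% of all genes tested. Igha, the constant region of IgA, rose from 11.8, 5.39 and 12.9 CPM to 190.4, 154 and 149.8 CPM (log2 difference 4.04 ± 0.67, adjusted p = 0.0017, edgeR). The groups did not overlap for Igha, but the list sum did overlap, at 1254, 715 and 1554 CPM and 1356, 3007 and 1305 CPM, with KO MTX replicate 3 highest. In the neutrophil and mast cell list, 10 of 18 were called higher and 2 lower, beside 15.7% and 22.9% of all genes tested. The list sum overlapped between groups, at 358, 387 and 266 CPM in flox vehicle and 119, 459 and 124 CPM in KO MTX mice. KO MTX replicates 2 and 4 lay below all controls in that sum. Mast cell proteases led the rises, and Tpsb2, a tryptase, was at 4.99, 2.01 and 2.31 CPM and 15.7, 114 and 17.4 CPM, where KO MTX replicate 3 was more than 6 times the other treated mice. Ltf, lactoferrin, which is made by neutrophils and by glandular epithelium, was at 301, 312 and 199.9 CPM and 1.09, 0.997 and 1.79 CPM. It made up most of the list sum in the controls. Lymphocyte calls rested on few mice. The 18 T cell calls became 8 without KO MTX replicate 3 (median 1.35) and 10 without flox vehicle replicate 3, and the 9 B and plasma cell calls became 3 without KO MTX replicate 3, 4 without flox vehicle replicate 3 and 14 without KO MTX replicate 2. With the epididymis sum as a covariate the T cell and B cell medians turned to -0.43 and -1.63.

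Stromal and matrix genes rose in part. Of 24 stromal progenitor genes, 17 were called higher and 2 lower (median 1.07), though their summed level overlapped between groups. Lum, a proteoglycan of collagen fibrils, rose from 33.4, 31.4 and 72.2 CPM to 268, 305 and 248 CPM (log2 difference 2.58 ± 0.42, adjusted p = 0.00163, edgeR), and Pdgfra, the receptor that marks adipocyte progenitors, from 46, 16.9 and 34.8 CPM to 64.5, 111 and 73.8 CPM. Of 33 collagen and matrix genes, 16 were called higher and 3 lower (median 0.54), beside 15.7% and 22.9% of all genes tested. The fibrillar chains Col1a1 and Col3a1 had log2 differences of 2.03 and 1.79, while the basement membrane chain Col4a1 was not called, at 0.39. Timp1, an inhibitor of metalloproteases, rose from 2.56, 3.78 and 6.14 CPM to 80.9, 76.4 and 47.6 CPM (log2 difference 4.04 ± 0.79, adjusted p = 0.00291, edgeR). The falls were Col4a3 (-2.98) and Col4a4 (-3.38), chains of epithelial basement membranes, and Col7a1 (-2.80), which anchors epithelia. Without control replicate 4 the collagen median was 1.02, and with it as the only control 2 collagen genes were called higher. Of 28 proteases and inhibitors, 16 were called higher and 2 lower (median 1.02), and of 13 mesothelial genes 6 were called higher and 0 lower (median 0.69). The shares of all genes tested were again 15.7% and 22.9%. The 6 mesothelial calls became 1 without KO MTX replicate 3, 2 or 3 when control 1 or control 3 was left out, and the median turned to -0.30 with the covariate.

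Genes of the cell cycle were higher in KO MTX mice. Of 50 tested, 40 were called higher and 0 lower, with a median log2 difference of 1.48, and 33 were called higher against flox vehicle replicate 4 alone. Ccna2, cyclin A2 of S and G2 phase, rose from 2.73, 4.52 and 7.29 CPM to 26.3, 25.1 and 23 CPM (log2 difference 2.36 ± 0.30, adjusted p = 0.00149, edgeR). The treated mice were close to each other and every one was more than 3 times the highest control. Cdt1, which licenses replication origins, and Birc5, survivin, had log2 differences of 2.61 and 2.58, and Mki67, the proliferation marker Ki-67, of 2.30. Among p53 targets, 5 of 20 were called higher and 3 lower (median 0.32), beside 15.7% and 22.9% of all genes tested. Cdkn1a, the cell cycle inhibitor p21, was at 69.3, 95.7 and 179.6 CPM and 285, 177 and 279 CPM, called but with overlapping groups, Plk2 had a log2 difference of 2.51 and Mdm2 of 0.68. Perp, a desmosomal p53 target of epithelia, fell (-3.30) and followed the order 3, 1, 4. Immediate early genes, which respond within minutes to stress and growth factors, were called higher in 16 of 20 cases and lower in 1 (median 1.14), with Fos at 7.33, 7.39 and 13.2 CPM and 107, 117 and 64.3 CPM and Atf3, a stress factor, at 13.7, 7.51 and 13 CPM and 191, 248 and 133 CPM (log2 difference 4.06 ± 0.79, adjusted p = 0.00275, edgeR). Such genes also respond to dissection, and the part of tissue handling was not tested. In the heat shock and unfolded protein list 4 of 20 were called higher and 4 lower, shares near those of all genes, 8 calls that became 4 without KO MTX replicate 2, 5 without KO MTX replicate 4 and 5 without flox vehicle replicate 3.

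Adipocyte genes were lower, in fewer members. Of 30 tested, 12 (40%) were called lower and 0 higher, beside 22.9% and 15.7% of all genes tested. Their median log2 difference was -0.86, and 0 of the 12 followed the order 3, 1, 4. Groups did not overlap for 11 of the 30, a smaller share than the 51.7% of all genes tested. Pck1, which makes the glycerol backbone for fatty acid re-esterification, went from 1955, 227 and 872 CPM to 132, 68.8 and 134 CPM (log2 difference -3.19 ± 0.77, adjusted p = 0.00769, edgeR). Adrb3, the adrenergic receptor that starts lipolysis, went from 727, 151 and 347 CPM to 67.8, 26.1 and 52.4 CPM (log2 difference -3.07 ± 0.86, adjusted p = 0.0161, edgeR). For both genes control replicate 3, the library richest in epididymal transcripts, was the lowest control, and all controls still lay above the KO MTX mice. Adipoq, adiponectin, at 3217, 1080.1 and 2194 CPM and 1016, 375 and 1131 CPM, was called (-1.36) with overlapping groups, a call lost without KO MTX replicate 3 (-0.999) or flox vehicle replicate 1 (-0.96), and the glucose transporter Slc2a4 (GLUT4) fell by 3.60-fold. Pparg, the adipocyte master regulator, and Fabp4 were not called, at -0.39 and -0.42. The summed adipocyte level overlapped, at 72900.4, 37405 and 71092 CPM and 47111, 27669.8 and 49171 CPM. Without flox vehicle replicate 3, 17 of 30 were called lower (median -1.11).

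Of 22 lipogenic genes, 8 (36.4%) were called lower and 0 higher (median -0.88), beside 22.9% and 15.7% of all genes tested. Groups did not overlap for 7 of the 22, a smaller share than the 51.7% of all genes tested. Of the 8 falls, 3 were in the order 3, 1, 4, and 4 lipogenic genes were called without KO MTX replicate 3. Thrsp, a lipogenic regulator, fell from 922, 311 and 581 CPM to 130.0, 98.2 and 191 CPM (log2 difference -2.11 ± 0.62, adjusted p = 0.0199, edgeR), and Srebf1, the transcription factor of the program, had a log2 difference of -1.60. Fasn, fatty acid synthase, was not called, at 1480.2, 1518 and 2178 CPM and 1484, 756 and 1847 CPM. Against flox vehicle replicate 4 alone, 3 lipogenic and 9 adipocyte genes were called lower. Fatty acid oxidation and TCA cycle genes had few calls, with 1 of 29 called higher, Pdk4 (1.32), and 3 lower, the regulators Ppara (-2.01) and Ppargc1a (-1.82) and the uncoupling protein Ucp3 (-2.13). The Pdk4 call was lost in the fit of the 6 libraries alone (1.33) and without KO MTX replicate 2 (1.27), KO MTX replicate 4 (1.19) or flox vehicle replicate 3 (0.89). In the beige and brown fat list, 1 of 14 was called higher and 3 lower, near or below the shares of all genes.

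The insulin signalling list did not stand out by its counts, with 2 of 20 genes called higher and 5 lower (median -0.20) beside 15.7% and 22.9% of all genes tested. Both insulin receptor substrates fell, Irs2 from 84.3, 54.6 and 77.5 CPM to 25.9, 27.9 and 20.2 CPM (log2 difference -1.55 ± 0.20, adjusted p = 0.00149, edgeR) and Irs1 from 14.2, 5.98 and 10.3 CPM to 4.13, 2.34 and 3.98 CPM (log2 difference -1.54 ± 0.44, adjusted p = 0.0169, edgeR). Insr, the receptor itself, had a log2 difference of -0.78, and Ptpn1, a phosphatase that restrains it, rose from 69.8, 70.1 and 56.3 CPM to 104, 152 and 108 CPM. Akt1 was called higher (0.82) and Akt2, the main form in adipocytes, was not called (-0.67, groups apart). Akt2 was called lower in 5 of the alternatives, the 6 libraries alone (-0.66), DESeq2 (-0.68), at least 10 counts in every library (-0.73), library sizes alone (-0.70) and without flox vehicle replicate 3 (-0.86).

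**Figure D4:**
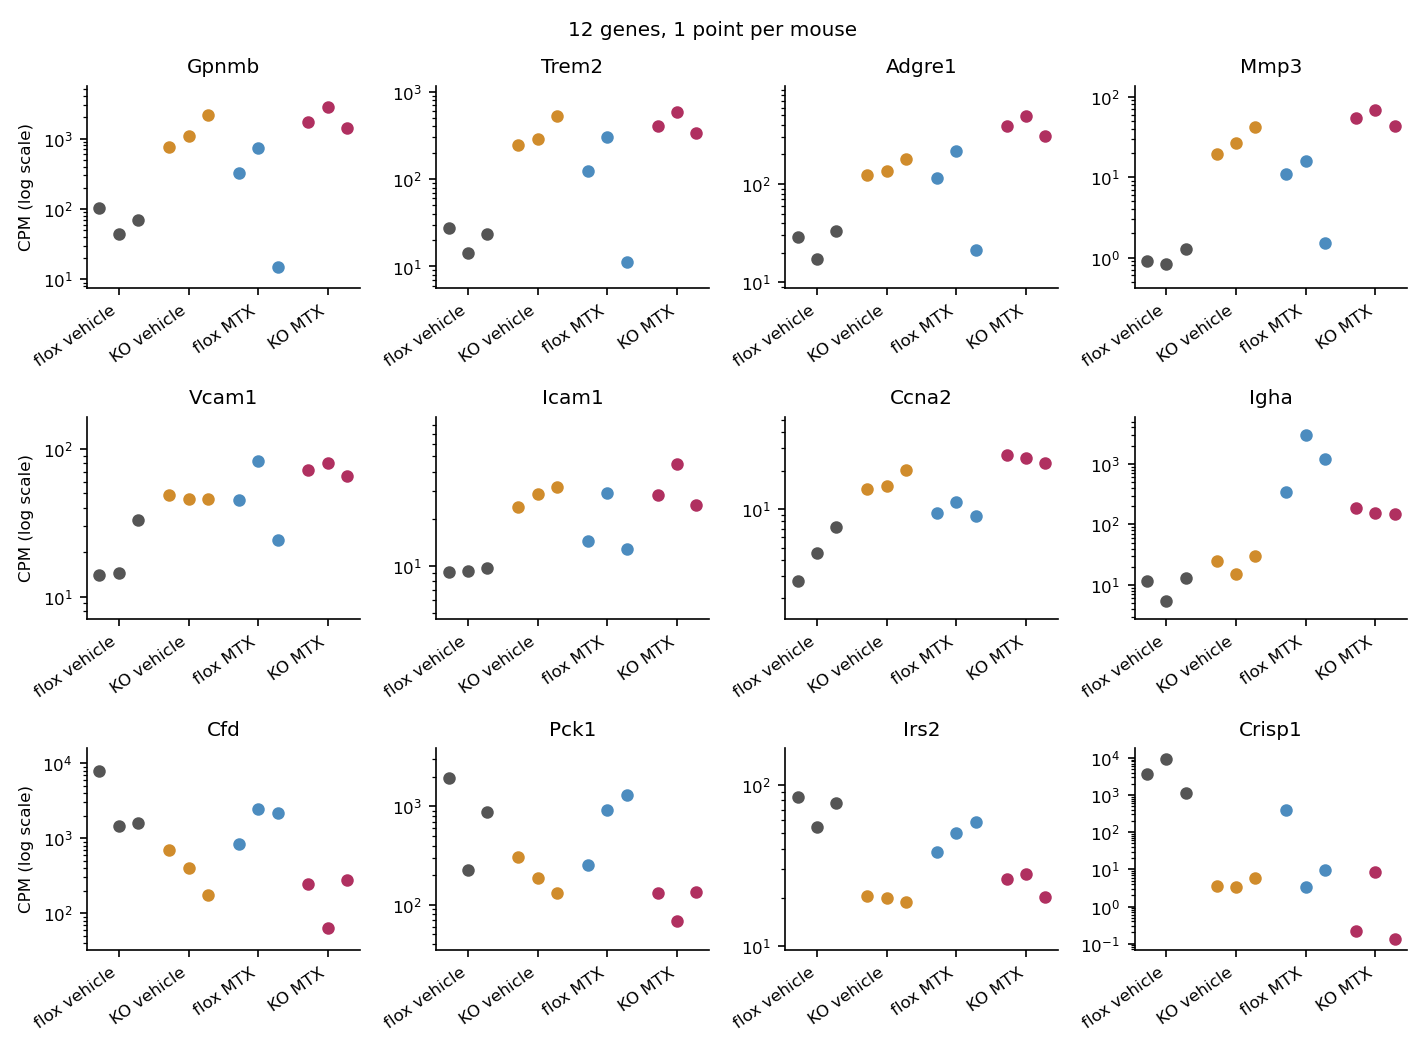
CPM of 12 genes on log axes, 1 point per mouse in the 4 groups, coloured as in the plot of list sums. For each of these genes the 3 KO MTX points lie on one side of the 3 flox vehicle points, Igha is highest in the flox MTX mice, and Crisp1 shows the epididymal pattern with 9201 CPM in flox vehicle replicate 3.

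Genes of folate metabolism and MTX transport were called higher in 5 and lower in 9 of 27 cases (median -0.18), beside 15.7% and 22.9% of all genes tested, and 8 of the 9 falls followed the order 3, 1, 4. Tyms, thymidylate synthase, rose from 4.95, 5.03 and 7.39 CPM to 14.9, 12.1 and 11.5 CPM (log2 difference 1.15 ± 0.21, adjusted p = 0.00237, edgeR), and Abcg2, an exporter of MTX, from 11.2, 12.9 and 15.7 CPM to 27.4, 25.2 and 32.4 CPM. Folr2, the macrophage marker described above, was another of the 5 rises. Slc19a1, the folate carrier that imports MTX, was not called (-0.47). Fpgs, which traps MTX in cells as polyglutamates, was called lower at 34.8, 73.6 and 16.7 CPM and 12.1, 13.4 and 14.5 CPM, set apart by its order among the controls. In purine and pyrimidine synthesis, 8 of 31 were called higher and 5 lower (median 0.23), beside the same 15.7% and 22.9%. Calls in either direction made up 41.9% of that list, near the 38.6% of all genes tested. The salvage enzyme Aprt was at 23.3, 16.5 and 19.8 CPM and 92.2, 117 and 67.9 CPM. Atic, an enzyme that MTX polyglutamates inhibit, was not called, at 48.4, 38 and 67.8 CPM and 63, 65.8 and 61.8 CPM.

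Of 17 adenosine genes, 6 were called higher and 4 lower (median 0.26), beside 15.7% and 22.9% of all genes tested. The lower share was close to that of all genes. Of the receptors, Adora2a was at 11.1, 7.32 and 8.68 CPM and 15.1, 13.2 and 17.3 CPM (log2 difference 0.76 ± 0.25, adjusted p = 0.0342, edgeR), and Adora2b had a log2 difference of 1.24 ± 0.42 (adjusted p = 0.0362, edgeR). Adora3 was at 0.26, 0.393 and 0.554 CPM and 0.957, 1.21 and 0.699 CPM, with 6 counts in the lowest control, and was called (log2 difference 1.24 ± 0.39, adjusted p = 0.0285, edgeR) but set apart as not expressed in fat. These receptor calls were lost without single mice, Adora2a without flox vehicle replicate 3 (0.63), Adora2b without flox vehicle replicate 1 (1.16) or 3 (0.95) and Adora3 without flox vehicle replicate 1 (1.01) or KO MTX replicate 3 (1.05). Adora1, the receptor that restrains lipolysis in adipocytes, was not called, at 111, 119 and 188 CPM and 122, 48.7 and 159 CPM, and turned sign without KO MTX replicate 3 (0.02). Entpd1 (CD39), which starts the breakdown of extracellular ATP, rose from 16.3, 17.2 and 17.3 CPM to 57.4, 68.2 and 50.2 CPM (log2 difference 1.79 ± 0.26, adjusted p = 0.0015, edgeR). Nt5e (CD73), which makes adenosine from AMP, was at 41.5, 66 and 22.5 CPM and 2.31, 4.85 and 4.24 CPM, in the order 3, 1, 4, and Adk, which removes adenosine, fell from 68.3, 85.9 and 82 CPM to 41.6, 29.2 and 46.1 CPM (log2 difference -1.01 ± 0.33, adjusted p = 0.0338, edgeR), a call lost without KO MTX replicate 3 (-0.83).

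Of 31 TGF-β and SMAD genes, 5 were called higher and 3 lower (median 0.08), beside 15.7% and 22.9% of all genes tested. Smad2, Smad3 and Smad4, the transducers named in the study, were not called, at log2 differences of 0.08 ± 0.18, 0.08 ± 0.15 and 0.20 ± 0.10, while the ligand Tgfb1 rose from 35.8, 56.9 and 45.5 CPM to 162, 173 and 123 CPM and the receptor Tgfbr2 from 73.5, 53.7 and 81.8 CPM to 190.3, 285 and 204 CPM. Of 24 NF-κB pathway genes, 9 were called higher and 0 lower (median 0.49), beside the same 15.7% and 22.9%. Among the 9 were Traf1 (1.64), an adaptor of TNF receptors, and the subunit Rel (1.62). Among the targets of miR-181b named in the study, Kpna4 (importin-α3) was at 111, 102 and 141 CPM and 131, 109.6 and 129.8 CPM, and Card10 at 74.6, 47.5 and 48 CPM and 44.8, 35.1 and 48.4 CPM, neither called. Phlpp2, a phosphatase of AKT, was called lower, at 25.6, 24.3 and 21 CPM and 14.8, 15.9 and 16.2 CPM (log2 difference -0.59 ± 0.14, adjusted p = 0.0071, edgeR), with groups apart. This change stood at the 1.5-fold limit, and the call was lost without KO MTX replicate 2 (-0.55), flox vehicle replicate 1 (-0.53) or flox vehicle replicate 3 (-0.57) and with no filter on low counts (-0.57).

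Genes with and without a match to the miR-181 seed had similar median differences. The site TGAATGT, the complement of seed bases 2 to 8, was searched on the sense strand of the longest annotated 3′ UTR of each kept gene (GENCODE M21, UTRs of 50 bases or more). Of 13547 such genes, 11041 held 0 matches, 2003 (14.8%) held 1 and 503 (3.71%) held 2 or more. Their median log2 differences were 0.03, 0.04 and -0.03, and 19.1%, 18.4% and 13.9% of them were called higher. Median UTR length was 968, 2134 and 3742 bases in the same order. The longest UTRs annotated for Kpna4, Card10 and Phlpp2 held 0 matches of this kind. A match is a description of letters, and other forms of site were not searched.

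The largest falls among the kept genes included transcripts known from epithelia and glands. Ptgds, prostaglandin D synthase, which is abundant in epididymis and brain, was at 433, 691 and 235 CPM in the controls and 0.304, 1.26 and 0.306 CPM in the KO MTX mice (log2 difference -9.49 ± 1.77, adjusted p = 0.00237, edgeR). Cdh16, a cadherin of renal epithelium, was at least 239-fold lower, at 18.3, 59.4 and 15.7 CPM against 2 counts in all 3 KO MTX mice together. The others chosen by size were ccdc198, Bex4, Clic6, Sh3gl2, Lrguk, Greb1, Calml3, Ltf, Pkhd1 and Nxf3, of which the first 5 were at least 451-fold, 85.7-fold, 75.3-fold, 95.2-fold and 57.2-fold lower. In 11 of these 12 genes the controls followed the order 3, 1, 4, and these 11 were kept because 3 or more libraries outside the comparison reached 0.5 CPM and replicate 3 was less than 4 times replicate 4.

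With genes in this order set apart and 1 CPM asked in all 6 other libraries, other genes had the largest falls, a selection made after the values were seen. Cyp2e1, a cytochrome P450 of liver and adipocytes, was at 4303, 559 and 1053 CPM and 20.1, 11.5 and 48.2 CPM (log2 difference -6.21 ± 1.35, adjusted p = 0.00459, edgeR). After Cfd came Rasd1, a small GTPase, at 142, 113 and 176 CPM and 10.9, 3.03 and 9.35 CPM, and Agt, the precursor of angiotensin, at 348, 111 and 142 CPM and 19.7, 19.8 and 32.2 CPM. Pck1, Adrb3 and Sorcs2 (-3.19) were also among the first 12. So were Spa17 (-3.64) and Tulp2 (-3.11), known from testis, Adgrg2 (-3.42), a receptor of the efferent ducts and epididymis, and Col4a4, so that this selection too held transcripts known from the reproductive tract.

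The same KO MTX libraries were then set against the groups that carried the deletion or the drug alone. Both comparisons share the KO MTX mice with the main one and set them against other groups than flox vehicle, whose libraries still entered the fit through the shared dispersion, the filter and the TMM scaling. Against KO vehicle mice no gene was called (0.0% of 18702, edgeR, 1491 genes at an unadjusted p below 0.05, smallest adjusted p = 0.293), whereas DESeq2 called 276. Against flox MTX mice no gene was called either (0.0%, edgeR, 4576 genes at an unadjusted p below 0.05, smallest adjusted p = 0.104), but DESeq2 called 2740, and 1491 were called when at least 10 counts were asked in every library. The 2842 kept genes called higher against flox vehicle had median log2 differences of 1.35 against flox vehicle, 0.64 against flox MTX and 0.23 against KO vehicle. The 2490 called lower had medians of -1.28, -0.54 and -0.31. These lists were chosen in the first comparison, so their values in the others are given side by side and not as support.

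**Figure D5:**
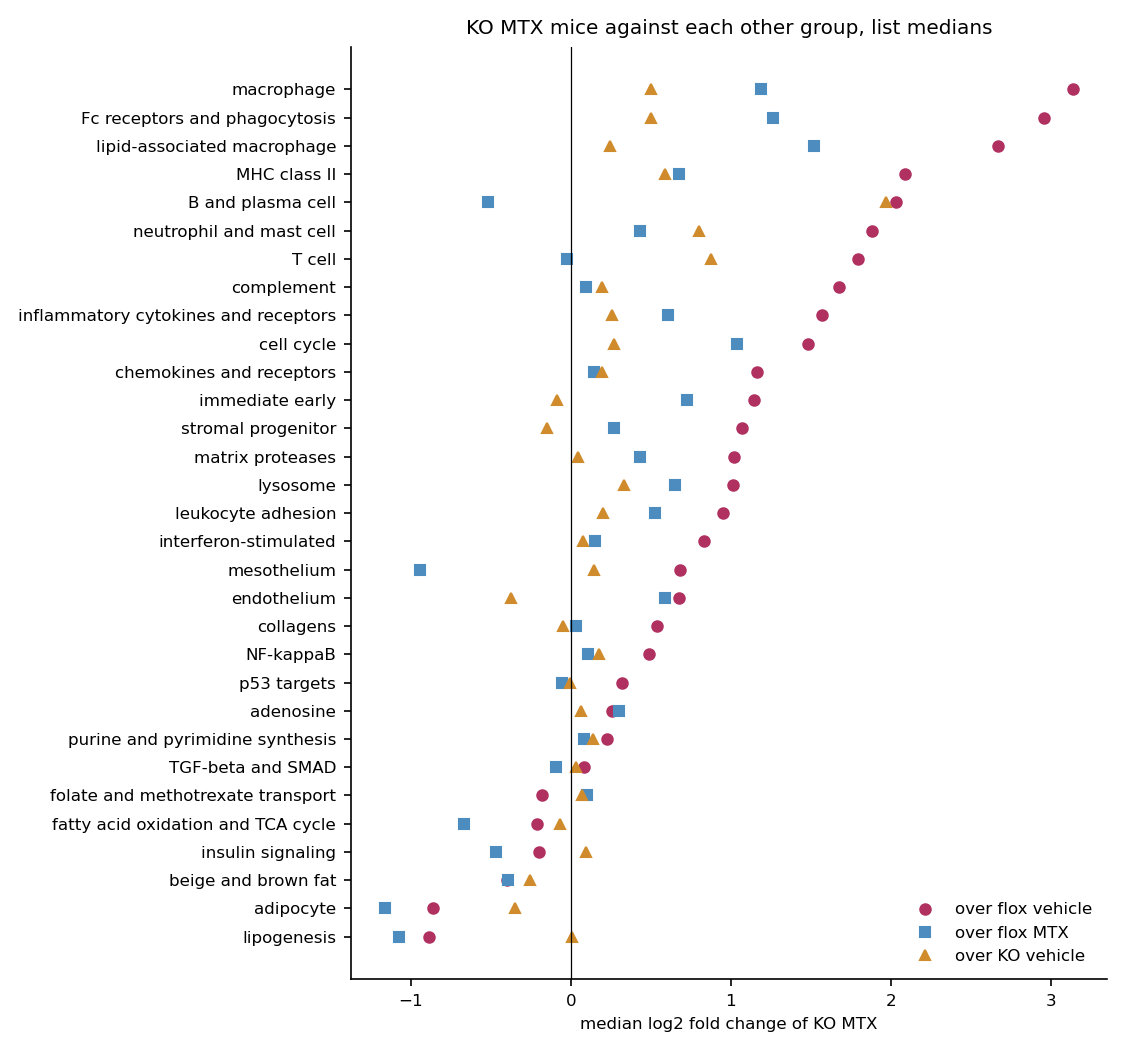
Median log2 fold change of KO MTX mice over flox vehicle (circles), flox MTX (squares) and KO vehicle (triangles) for 31 gene lists. Macrophage genes run from 3.14 over 1.19 to 0.50 and adipocyte genes from -0.86 over -1.16 to -0.35 in this order, and all 3 comparisons share the KO MTX mice.

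Over all 18702 genes tested, 4576 had an unadjusted p below 0.05 against flox MTX and 1491 against KO vehicle (edgeR). Those totals are the background for the list counts that follow, and the macrophage, cell cycle and adipocyte counts against KO vehicle were near or below it. Macrophage genes had a median log2 difference of 1.19 against flox MTX, with 15 of 23 at an unadjusted p below 0.05, and of 0.50 against KO vehicle, with 2 of 23. Their sums were 6084, 7037 and 10841 CPM in KO vehicle and 3604, 7109 and 1139 CPM in flox MTX mice, where replicate 4 of flox MTX lay within the range of the flox vehicle mice and replicate 2 near the KO groups. Trem2 was at 247, 288 and 526 CPM in KO vehicle and 124, 302 and 11.2 CPM in flox MTX mice. Cell cycle genes had medians of 1.04 against flox MTX, with 42 of 50 at an unadjusted p below 0.05, and 0.27 against KO vehicle, with 2 of 50. Adipocyte genes had medians of -1.16 against flox MTX, with 20 of 30 at an unadjusted p below 0.05, and -0.35 against KO vehicle, with 0 of 30. Irs2 was at 20.6, 19.8 and 18.8 CPM in KO vehicle and 38.2, 50.3 and 58.5 CPM in flox MTX mice, and Vcam1 at 48.7, 45.6 and 45.9 CPM and 45.3, 82.2 and 24.2 CPM. For Irs2 the KO MTX values lay next to those of KO vehicle and below all flox MTX values, whereas for Vcam1 they lay within the spread of flox MTX.

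Some gene groups took another order. B and plasma cell genes had a median of 1.97 against KO vehicle and of -0.52 against flox MTX, and Igha was at 24.7, 15.3 and 29.8 CPM in KO vehicle and 347, 2970.0 and 1225 CPM in flox MTX mice, with KO MTX between them (2.82 and -3.20, adjusted p = 0.293 and 0.104, edgeR). T cell genes had medians of 0.88 and -0.02 in the same order. The sums of B and plasma cell genes in flox MTX mice were 1713, 13445 and 3542 CPM, with replicate 2 far above the rest. Motile cilia genes had a median of -2.12 against KO vehicle, with 27 of 37 at an unadjusted p below 0.05, and -0.20 against flox MTX. Over all 18702 genes tested, 1491 reached that p against KO vehicle. Endothelial genes had medians of -0.37 against KO vehicle and 0.59 against flox MTX, and Plvap was at 87.5, 118 and 111 CPM in KO vehicle and 62.8, 26.1 and 21 CPM in flox MTX mice.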

How the data were processed

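RNA from eWAT was sequenced in 12 male mice, 3 per group. The authors trimmed reads with Trimmomatic 0.36, aligned them to GRCm38 with STAR 2.5.2b and used featureCounts (Subread 1.5.2) to obtain the deposited raw counts of 49315 Ensembl genes. The labels name polyA RNA and the methods describe removal of ribosomal RNA, and strand and multimapping settings are not given in the sources used here, so overlapping and antisense genes and near-identical copies are uncertain. Symbols and positions came from GENCODE M21 (GRCm38), 0.0175% of counts having none.

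Counts were tested with edgeR 4.0.16 (R 4.3.3) by the quasi-likelihood F-test, with TMM factors, the default filter for low counts (18702 genes left), all 12 libraries and 1 coefficient per group, and p-values were adjusted by the Benjamini-Hochberg method. CPM are TMM-scaled. The 6 libraries compared held 21204019 to 23491634 counted reads, and 3 counts corresponded to 0.118 to 0.139 CPM. Limits of 3 counts cover counting error only. On simulated data for this comparison (18702 genes), 146 of 200 genes changed 4-fold were called, and 13 unchanged ones. All other genes had equal means in every group there, without reproductive tract transcripts shared by some libraries. The simulation therefore does not give the error rate of the real comparison, in which 38.6% of genes were called.

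The members of the comparison and the 40 gene lists were chosen with earlier results of these data known. Named genes were the 12 largest rises and falls among kept genes with groups apart and a mean of at least 5 CPM, up to 3 largest called changes per list, the genes the study names and the most abundant reproductive tract genes. Another 52 genes were named for their known roles after their values were seen. Some genes are not reported here. Alternatives were DESeq2 1.42.0, RLE factors, library sizes alone, other filters and fold limits, the 6 libraries alone, a replicate block, an epididymis covariate and leaving out libraries. The 2 stricter ways of setting genes apart were added after seeing the data.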

Additional observations from a re-analysis of the deposited data

How the results depend on the processing

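Every count and list median below belongs to KO MTX against flox vehicle unless another group is named, medians and gene values are log2 differences, and the cause of a change was not tested. Leaving out 1 mouse gave 6415 to 7785 called genes beside 7222, and list medians of 1.35 to 2.06 for T cells, -10.35 to -7.75 for accessory gland, 1.10 to 1.52 for chemokines, 0.47 to 1.02 for collagens, -5.47 to -4.23 for germ cells, 0.00091 to 0.29 for heat shock, -0.38 to -0.094 for insulin signalling, 2.19 to 2.84 for lipid-associated macrophages, -5.23 to -4.36 for cilia, 1.57 to 2.75 for neutrophils and mast cells, 0.19 to 0.50 for p53 targets and -0.52 to 0.15 for skeletal muscle. Gene values ranged from -0.69 to 0.024 for Adora1 and from -0.029 to 0.22 for Kpna4, neither of which was called.

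Whether same-numbered mice shared a litter or cage is not given in the sources used here. Deviations from group means correlated at 0.036 and 0.041 in the 2 same-numbered pairs, against -0.158 to 0.161 in 7 other pairs. With only 2 pairs, and uneven epididymal content among the controls, these values cannot show whether mice were paired. With the replicate block 6549 genes were called, 2490 kept genes higher and 2279 lower, the collagen median was 0.91, the cilia median -5.16 and Smad3 -0.0022, and 8 named calls were lost, those of Adora2b, Adora3, Myh2 and Sox7 among them. DESeq2 gave no adjusted p for Ighv1-81, Serpinb9b, Ltf and Lcn5. It called 276 genes against KO vehicle and 2740 against flox MTX, and gave medians of -7.81 for epididymis and -0.95 for accessory gland. The median of all genes was -0.07 with TMM, -0.08 with RLE and -0.10 with library sizes. Without a filter, 20 genes were called against KO vehicle and 875 against flox MTX, with medians of -7.99 for epididymis and -1.80 for accessory gland. With at least 10 counts in every library, 4775 genes were called, 2482 of them lower, and 1491 against flox MTX. That filter removed the strongest reproductive tract falls and left 0 epididymis calls, with medians of -0.62 for epididymis, 0.14 for accessory gland, -1.61 for germ cells, -1.53 for cilia, -2.11 for epithelium, 1.07 for cytokines, 0.22 for p53 targets and -0.49 for skeletal muscle. A log2 limit of 1.5 left 4026 genes, 1330 higher and 2696 lower, and 1247 and 972 among kept genes. The stricter rules left 1332 and 917 kept genes lower.

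With flox vehicle replicate 4 as the only control, 3872 genes were called, 1514 higher and 2358 lower, and 1463 and 973 among kept genes, and 58 named calls were lost, those of Vcam1, Trem2, Gpnmb and Cd74 among them. Medians were then 2.56 for macrophages, 2.55 for Fc receptors, 1.48 for MHC class II, 1.31 for complement, 0.62 for stroma, 0.077 for p53 targets, 0.39 for heat shock, -7.96 for epididymis, -7.17 for accessory gland, -4.25 for cilia and -5.29 for epithelium. Smad2 (-0.051), Smad3 (-0.054), Kpna4 (-0.19) and Atic (-0.087) turned sign, none of them called.

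With the epididymis covariate 0 genes were called by edgeR, 0 higher and 0 lower, kept or not, with 1872 genes at an unadjusted p below 0.05. Medians that stayed above 0 were 2.31 for macrophages, 2.00 for Fc receptors, 0.92 for MHC class II, 1.16 for complement, 0.21 for chemokines, 0.60 for cytokines, 1.76 for endothelium, 0.64 for stroma, 0.87 for neutrophils and mast cells, 0.15 for interferon, 0.10 for p53 targets, 0.26 for NF-κB, 0.46 for heat shock and 0.70 for immediate early genes. Those below 0 were -0.97 for beige fat, -0.78 for insulin signalling, -0.0046 for folate, -0.35 for TGF-β, -1.42 for accessory gland, -3.69 for germ cells, -3.05 for cilia and -1.24 for epithelium. Medians turned to -0.30 for mesothelium, -0.43 for T cells, -1.63 for B and plasma cells and 0.37 for epididymis. Genes reported here that turned sign were Ighv1-81 (-1.39), Gk (1.53), Lrrn4 (-0.053), Igha (-0.13), Cr2 (-1.50), Cd22 (-0.97), Rel (-0.041), Myh2 (-0.70), Lcn5 (5.91), Pate4 (1.82), Pax2 (0.68), Adora1 (0.21), Smad3 (-0.54), Kpna4 (-0.094), Atic (-0.25), Fpgs (0.10), Timd4 (-0.23), Crisp1 (0.35), Cuzd1 (0.84), Spink8 (0.90), Prom2 (0.47) and Prom1 (0.87).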

Other observations

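Genes of the circadian clock were called higher in 2 and lower in 5 of 19 cases, with a median log2 difference of -0.08, beside 15.7% and 22.9% of all genes tested. Nfil3, a repressor of clock output, was at 6.16, 5.39 and 9.51 CPM in flox vehicle and 16.4, 14 and 22.6 CPM in KO MTX mice (log2 difference 1.33 ± 0.29, adjusted p = 0.00457, edgeR). The 7 calls became 4 without KO MTX replicate 3, and the time of day at which tissue was taken is not given in the sources used here.

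Skeletal muscle genes were uneven among single mice. Of 16 tested, 3 were called higher and 2 lower (median -0.21), and the 5 calls became 3 without KO MTX replicate 2, KO MTX replicate 4 or flox vehicle replicate 1. Myh2, a fast myosin, was at 0.0868, 0.118 and 0.231 CPM and 0.391, 0.303 and 1.01 CPM, and its call was lost without KO MTX replicate 2 (2.15) or 4 (1.25), without flox vehicle replicate 1 (1.69) or 3 (1.81), with library sizes alone (1.90) and with no filter on low counts (1.96). Mb, myoglobin, was at 1.56, 6.49 and 1.62 CPM and 0.0435, 0.26 and 0.393 CPM. The summed level was 81.2, 80.3 and 106 CPM and 96.4, 53.9 and 90.6 CPM.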
